A study of Mus musculus with 25 samples.

Results

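Proliferation genes, taken here as a fixed list of 46 genes of DNA replication and mitosis, were followed in sorted mouse lung cells through bleomycin injury and its aftermath. Membership was set by gene function, with earlier results of these data known, and all 46 genes were found in both the bulk count table (47729 genes) and the single-cell matrices. All 46 passed the filter on low counts and were among the 15773 genes tested. For some of them this rested on the other groups: with naive and week 6 Fas-/- libraries alone, 41 of the 46 passed. Those that did not were Ccne2, Melk, Bub1, Aurkb and Hmmr, which stay in all counts of genes called below. Of these, Ccne2, Melk and Bub1 passed only through the week 3 libraries. Their calls between week 3 and another group are therefore not independent of the filter.

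The cells were Lin- lung cells, which had been depleted by sorting of cells carrying CD45 (leukocytes), CD31 (endothelium) and CD326 (epithelium) and are therefore enriched in fibroblasts. All mice carried Col1-CreERT2, a tamoxifen-inducible Cre driven by the Col1a1 promoter, and floxed Fas alleles (Fas fl/fl). Bleomycin-instilled mice given corn oil are called Fas+/+ and those given tamoxifen, in which exon 9 of Fas is deleted in Col1a1-expressing cells, are called Fas-/-, so deletion cannot be told apart from tamoxifen. Naive mice received no bleomycin. Whether they were given corn oil or tamoxifen is not stated. Comparisons with naive mice may therefore also differ by these injections, which cannot be told apart from bleomycin. Bulk RNA-seq comprised 4 libraries in each of 5 groups (naive, and Fas+/+ and Fas-/- at 3 and at 6 weeks after bleomycin), and scRNA-seq comprised 5 libraries, 1 per condition, from pooled mice. The labels do not give the ages of the mice, nor that replicates came from separate animals, so p-values measure the spread between libraries.

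A dividing cell makes these genes' products in waves. Around the G1/S border E2F transcription factors and E-type cyclins switch on the MCM helicase, other replication proteins and the enzymes that make deoxynucleotides. Later, FoxM1 and the B-Myb-MuvB complex switch on the cyclin B kinases, the spindle checkpoint, centromere proteins and spindle motors, which the anaphase-promoting complex then removes. In the adult lung most fibroblasts are quiescent, and the transcripts of this set are widely used as a sign of cycling cells. In bulk samples, more cells in cycle and more RNA per cycling cell cannot be told apart.

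Cell cycle promoters of the late wave are known for the CHR element, read by MuvB, and for CCAAT boxes, read by NF-Y, and those of the early wave for E2F sites. In RefSeq promoters of build GRCm38.p6 (250 bases before to 50 bases after each start), 38 of the 46 genes matched, with 41 promoters. The CHR was searched in its common form TTTGAA and in the variant forms TTCGAA as well as TTTAAA, and the CCAAT box by its own letters. The E2F site was searched as TTTCCCGC, then as TTTGGCGC, also as TTTCGCGC and finally as TTTGCCGC. All were searched on both strands. A CHR stood in 21 of the 23 promoters of mitotic genes (91.3%) and in 9 of the 18 promoters of replication and G1/S genes (50%), beside 28.8% of all 32851 promoters in the table. A CHR and a CCAAT box stood together in 20 of the 23 mitotic promoters (87%), against 11.3% of all promoters. E2F letters were in 6 of the 11 DNA replication promoters (54.5%) and in 0 of the 4 promoters of nucleotide supply. They were also in 0 of the 3 promoters of E2F and FoxM1 factors and E-type cyclins. This made 6 of the 18 replication and G1/S promoters (33.3%), beside 1 mitotic promoter, that of Cdk1, and 2.26% of all promoters. A match of letters is a description and does not show that a factor is bound.

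The 250 bases before the start of 1 gene for each of 8 roles follow, 5′ to 3′ on the gene's strand in GRCm38.p6, to show where these letters stand in early and late genes. Capitals mark the CHR, CCAAT and E2F letters found.

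Mcm5, chr8:75109259-75109508, plus strand: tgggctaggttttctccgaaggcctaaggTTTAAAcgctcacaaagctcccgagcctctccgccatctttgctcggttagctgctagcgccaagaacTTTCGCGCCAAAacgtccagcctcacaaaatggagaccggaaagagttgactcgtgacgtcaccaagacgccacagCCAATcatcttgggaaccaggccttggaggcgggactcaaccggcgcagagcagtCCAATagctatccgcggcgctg
Rrm2, chr12:24708004-24708253, plus strand: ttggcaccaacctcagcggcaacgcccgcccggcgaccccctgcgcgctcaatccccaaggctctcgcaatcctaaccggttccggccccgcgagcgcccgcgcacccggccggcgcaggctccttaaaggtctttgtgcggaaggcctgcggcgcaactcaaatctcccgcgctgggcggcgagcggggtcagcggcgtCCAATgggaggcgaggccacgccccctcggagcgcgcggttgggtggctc
Ccne1, chr7:38107491-38107740, minus strand: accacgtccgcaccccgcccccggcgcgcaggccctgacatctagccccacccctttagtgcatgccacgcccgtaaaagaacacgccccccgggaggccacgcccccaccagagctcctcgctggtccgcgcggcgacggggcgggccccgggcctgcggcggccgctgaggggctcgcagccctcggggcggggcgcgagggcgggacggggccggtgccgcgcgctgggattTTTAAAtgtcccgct
Cdk1, chr10:69352913-69353162, minus strand: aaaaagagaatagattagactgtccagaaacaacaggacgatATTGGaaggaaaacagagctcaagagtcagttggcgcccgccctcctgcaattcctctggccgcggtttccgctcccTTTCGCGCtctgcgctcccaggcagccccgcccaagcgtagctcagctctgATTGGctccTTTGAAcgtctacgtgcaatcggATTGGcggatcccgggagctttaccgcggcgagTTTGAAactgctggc
Cdc20, chr4:118437344-118437593, minus strand: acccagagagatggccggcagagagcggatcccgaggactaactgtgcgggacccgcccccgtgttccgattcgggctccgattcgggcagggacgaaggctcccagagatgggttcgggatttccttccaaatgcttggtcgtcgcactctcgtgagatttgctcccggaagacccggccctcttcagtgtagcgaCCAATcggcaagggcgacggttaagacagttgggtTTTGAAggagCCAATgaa
Birc5, chr11:117848987-117849236, plus strand: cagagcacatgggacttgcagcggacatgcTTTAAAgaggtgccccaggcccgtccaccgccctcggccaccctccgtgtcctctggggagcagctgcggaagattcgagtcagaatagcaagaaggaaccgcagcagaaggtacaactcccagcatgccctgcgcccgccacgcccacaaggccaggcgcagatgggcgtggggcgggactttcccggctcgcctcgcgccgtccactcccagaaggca
Kif11, chr19:37376132-37376381, plus strand: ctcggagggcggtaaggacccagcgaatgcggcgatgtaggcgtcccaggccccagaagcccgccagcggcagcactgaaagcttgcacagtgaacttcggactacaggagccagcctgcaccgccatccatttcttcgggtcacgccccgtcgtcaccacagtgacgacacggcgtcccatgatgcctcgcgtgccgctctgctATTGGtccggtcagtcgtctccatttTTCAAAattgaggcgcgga
Mki67, chr7:135716380-135716629, minus strand: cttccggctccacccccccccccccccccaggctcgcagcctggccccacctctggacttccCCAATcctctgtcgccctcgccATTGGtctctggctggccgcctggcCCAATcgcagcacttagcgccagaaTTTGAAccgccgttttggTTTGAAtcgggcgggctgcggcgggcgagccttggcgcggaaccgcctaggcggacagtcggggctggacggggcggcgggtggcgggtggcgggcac

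In Cdk1, Cdc20 and Kif11 the CHR nearest the start began 15, 18 and 19 bases before it, and a CCAAT box or its complement stood upstream at 48, 53 and 45 bases. In Mcm5 an E2F site on each strand overlapped at 153 and 149 bases before the start. Rrm2 had its CHR letters at the start itself, outside the bases shown, and Birc5 had CHR letters at 220 bases and no CCAAT box.

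Totals ran from 11819700 to 25189096 counts in the bulk libraries, the lowest being week 3 Fas+/+ replicate 3 (17655597 or more in the other 19), and levels are given as CPM, normalised read counts per 1000000 counts after TMM scaling. Fas itself did not separate the genotypes in these gene-level counts, at 33.97 to 57.7 CPM in Fas+/+ and 34.41 to 64.87 CPM in Fas-/- libraries at 3 weeks, and at 26.15 to 39.72 and 35.56 to 46.57 CPM at 6 weeks, where the Fas-/- mean was the higher (40.36 against 31.40 CPM). The counts do not resolve the deleted exon 9, so this checks neither label. Week 3 and week 6 are as labelled for the bulk libraries, and the single-cell libraries, described last, ran the other way between these labels. Several bulk libraries stood apart in markers of other cells. Replicate 1 of week 3 Fas+/+ and replicate 4 of week 3 Fas-/- held 7872 and 7240 CPM of 8 endothelial markers, against 2051 to 2767 and 554.3 to 954.5 CPM in the other 3 libraries of their groups, and the lowest sums of 8 fibroblast markers of their groups (10890 and 15210 CPM). All 8 endothelial markers were measured although CD31-positive cells had been sorted away, and Pecam1, which encodes CD31, reached 1626 and 1483 CPM in those libraries. Hematopoietic markers summed to at most 77.18 CPM and epithelial markers to at most 537.5 CPM in any library. Erythroid markers summed to 915.7 to 2843 CPM in the naive libraries and to 6.523 to 91.8 CPM in all other bulk libraries. Their part in the naive levels of proliferation genes was not tested. At 6 weeks Fas-/- replicate 2 held 2368 CPM of endothelial markers, against 101.4 to 402.5 CPM in its fellows. Replicate 2 of week 6 Fas+/+ held 49.31 CPM of hematopoietic and 537.5 CPM of epithelial markers, against 4.439 to 13.34 and 157.5 to 202.3 CPM, and was the highest of its group for 36 of the 46 proliferation genes.

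The 2 week 3 libraries were low in proliferation genes. Replicate 1 was the lowest of the week 3 Fas+/+ libraries for all 46 genes, and replicate 4 was the lowest of the week 3 Fas-/- libraries for 42 of 46. The 46 genes summed to 279.2 CPM in replicate 1, against 861.5, 1009 and 622.8 CPM in replicates 2, 3 and 4 of week 3 Fas+/+. In week 3 Fas-/- the sums were 518.6, 621.2 and 480.2 CPM, and 295.7 CPM in replicate 4. Naive libraries summed to 218.4, 231.9, 245.7 and 325.9 CPM, with replicate 4 the highest of its group for 35 genes. The part of the endothelial cells in these values was not tested, and counts without the pair are given beside the comparisons.

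**Figure D1:**
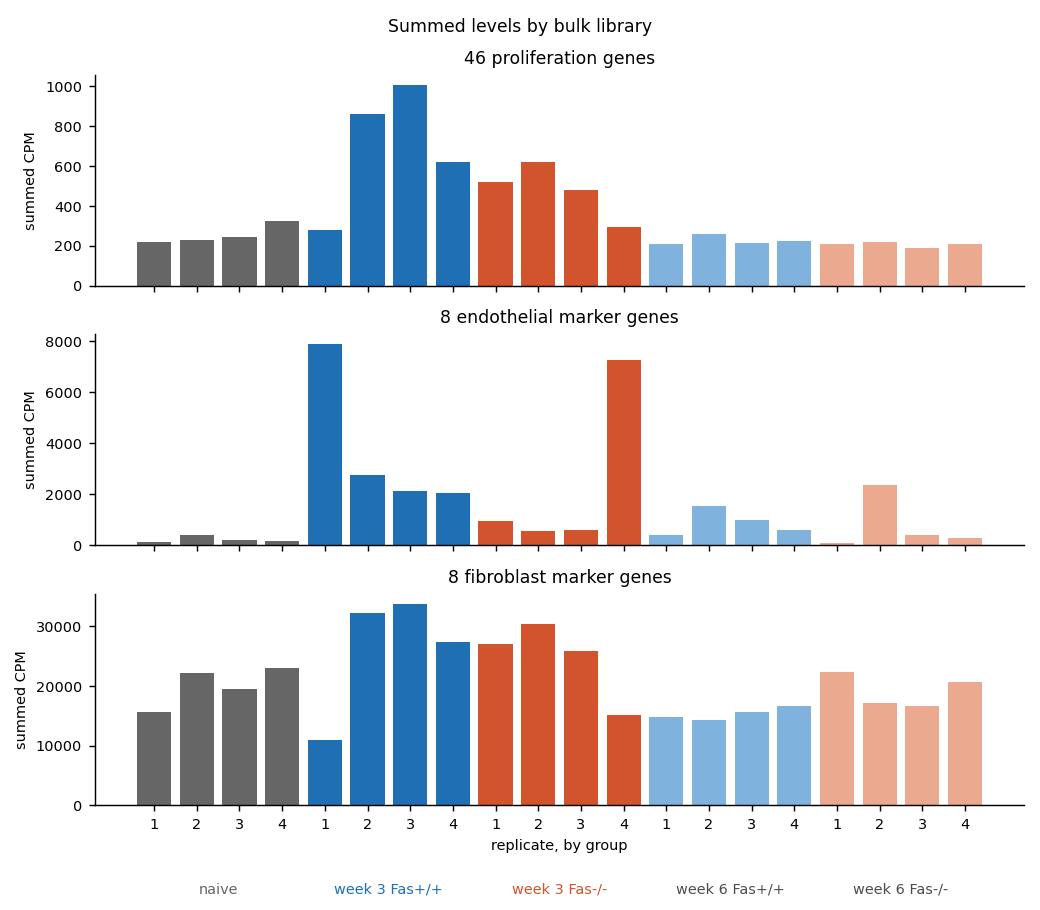
Summed CPM of the 46 proliferation genes (top), 8 endothelial markers (middle) and 8 fibroblast markers (bottom) in each of the 20 bulk libraries, 1 bar a library. Replicate 1 of week 3 Fas+/+ and replicate 4 of week 3 Fas-/- are lowest in proliferation genes and highest in endothelial markers among the libraries of their groups.

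The first comparison asked how the fibrotic lung at 3 weeks differed from the uninjured lung. In Fas+/+ mice 42 of the 46 proliferation genes were called higher than in naive mice and none lower, at an adjusted p of 0.05 or less, where 22.1% of all genes tested were called higher. The median log2 fold change of the 46 was 2.24, beside 0.01 over all genes. In Fas-/- mice 31 of the 46 were called higher and none lower, beside 17.2% of all genes, and the median was 1.63. Both comparisons use the same naive libraries. Only 4 genes were not called in Fas+/+ mice: Mcm4, Cdc6, E2f1 and Cenpa. Without the pair of libraries high in endothelial markers, 44 genes were called higher in Fas+/+ and 42 in Fas-/- mice. The share of all genes called higher in this refit is not given here. These counts alone do not show whether the gain is particular to the 46 genes. Endothelial markers were themselves called higher than in naive mice for 8 of 8 genes in Fas+/+ (median log2 4.62) and 7 of 8 in Fas-/- mice (median 3.96), and 6 of 8 hematopoietic markers were higher in each. Epithelial markers were called higher for 6 and 7 of 8 genes. Called lower were 6 of 6 erythroid markers in each genotype (medians of -2.92 and -4.08), 5 and 6 of 8 mural markers and 7 and 6 of 8 mesothelial markers. Of the 8 fibroblast markers, 1 was called higher and 4 lower in Fas+/+ mice (median -0.60). In Fas-/- mice 0 were called higher and 3 lower (median -0.35). The part of these marker changes in the rise was not tested.

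Of the 2 genes of chromosome structure, both rose in Fas+/+ mice and 1, Top2a, in Fas-/- mice. Mki67, the Ki-67 protein that coats mitotic chromosomes, was at 8.83, 10.5, 14.2 and 42.3 CPM in naive libraries 1 to 4, 12.6, 92.8, 103 and 68.5 in week 3 Fas+/+ and 44.1, 56.2, 46.5 and 14.6 in week 3 Fas-/- libraries. The groups overlapped: naive replicate 4 lay above the lowest library of each week 3 group, and naive replicate 3 also above week 3 Fas+/+ replicate 1. Mki67 was called higher in Fas+/+ (a log2 change of 1.87 with SE 0.575 and adjusted p = 0.0148) and not in Fas-/- mice (a log2 change of 1.09 with SE 0.565 and adjusted p = 0.15). Without naive replicate 1 the Fas+/+ call was lost (adjusted p = 0.0514), and without naive replicate 4 the Fas-/- change was called (log2 1.85, adjusted p = 0.0221). Top2a, the topoisomerase that disentangles sister chromatids, was at 1.68, 3.12, 4.11 and 9.22 CPM in naive, 4.37, 44.8, 56.1 and 33.6 in Fas+/+ and 26.2, 29.4, 21.3 and 6.62 in Fas-/- libraries. It was called in both genotypes, 7.63-fold higher in Fas+/+ (adjusted p = 0.00193) and 4.61-fold higher in Fas-/- mice (adjusted p = 0.0146), where the call was lost without naive replicate 1.

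All 7 mitotic cyclins and kinases rose in both genotypes, with medians of 2.76 and 2.08 on the log2 scale. Cdk1, the kinase that drives entry into mitosis, was at 0.603, 0.839, 1.72 and 2.16 CPM in naive, 1.42, 15.1, 19.1 and 8.82 in Fas+/+ and 7.16, 8.67, 5.26 and 2.29 in Fas-/- libraries. In Fas+/+ only replicate 1 lay within the naive range, and in Fas-/- no library did. The fitted changes were 8.29-fold (adjusted p = 0.000857) and 4.4-fold (adjusted p = 0.0122). Ccnb1, its cyclin B1 partner, was at 0.388, 0.1997, 1.15 and 1.91 CPM in naive, 1.08, 9.55, 12.1 and 5.63 in Fas+/+ and 4.79, 6.26, 4.43 and 0.968 in Fas-/- libraries. It was 7.75-fold higher in Fas+/+ (adjusted p = 0.00296) and 4.54-fold higher in Fas-/- mice (adjusted p = 0.0230), a call lost in Fas-/- mice without naive replicate 1 or 2 or week 3 Fas-/- replicate 2 (adjusted p of 0.0718, 0.065 and 0.0677). Plk1, the polo kinase of centrosomes and kinetochores, separated without overlap in both genotypes, at 1.08, 1.76, 1.86 and 2.42 CPM in naive, 3.19, 17.5, 19.1 and 8.72 in Fas+/+ and 9.47, 9.805, 7.79 and 3.16 in Fas-/- libraries. Melk, a kinase of the late cell cycle, had the largest rise of all 46 genes. It was at 0.345, 0.2795, 0.143 and 0.1299 CPM in naive, 0.442, 5.55, 7.53 and 3.24 in Fas+/+ and 2.42, 4.29, 2.87 and 0.917 in Fas-/- libraries. The log2 change was 4.16 in Fas+/+ (SE 0.740, adjusted p = 0.000331) and 3.51 in Fas-/- mice (SE 0.734, adjusted p = 0.00189). The naive levels of Melk lay near the floor, and Melk passed the filter on low counts only through the week 3 libraries. The size and rank of its rise are therefore uncertain, and its p-values are not independent of that filter.

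Of the spindle checkpoint and anaphase-promoting complex genes, all 4 rose in Fas+/+ and 2 of 4, Bub1b and Cdc20, in Fas-/- mice. Cdc20, the activator that releases sister chromatids, was at 2.498, 2.88, 1.24 and 3.68 CPM in naive, 4.37, 17.1, 26.4 and 12.4 in Fas+/+ and 9.202, 10.7, 8.32 and 3.77 in Fas-/- libraries, with no overlap with naive in either genotype. Its two-sided exact permutation p was 0.0286 in both, the smallest that 4 against 4 libraries allow.

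Among the centromere and chromosomal passenger genes, 5 of 6 rose in Fas+/+ and 4 of 6 in Fas-/- mice. Birc5, the survivin subunit of the passenger complex, was at 0.5599, 0.799, 1.003 and 2.86 CPM in naive, 1.28, 7.604, 10.6 and 5.58 in Fas+/+ and 3.39, 4.68, 4.38 and 1.43 in Fas-/- libraries. It was called in Fas+/+ (a log2 change of 2.24 with SE 0.570 and adjusted p = 0.00456) and missed the threshold in Fas-/- mice (a log2 change of 1.41 with SE 0.564 and adjusted p = 0.0642). The Fas-/- change of Birc5 was called without naive replicate 4 (adjusted p = 0.0126), without week 3 Fas+/+ replicate 1 (0.0241) or without week 3 Fas-/- replicate 4 (0.0357). Cenpa, the histone that marks centromeres, stood apart from the rest: it was at 13.96, 10.3, 11.9 and 8.14 CPM in naive, 8.44, 15.3, 19.9 and 10.04 in Fas+/+ and 9.202, 11.6, 8.66 and 5.81 in Fas-/- libraries, with log2 fold changes of 0.27 and -0.32 and no call.

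All 7 spindle and cytokinesis genes rose in Fas+/+ and 5 of 7 in Fas-/- mice, where Kif11 (adjusted p = 0.0617) and Nusap1 (adjusted p = 0.526) were not called. The largest change of this role was that of Kif23, a cytokinesis motor, at log2 3.58 and 2.70 in Fas+/+ and Fas-/- mice. Kif11, the motor that pushes spindle poles apart, was at 0.862, 1.48, 1.91 and 4.11 CPM in naive, 1.47, 9.71, 12.8 and 8.41 in Fas+/+ and 4.79, 7.05, 6.38 and 2.34 in Fas-/- libraries. The Fas-/- change of Kif11 was called without naive replicate 4 (adjusted p = 0.0172), without week 3 Fas+/+ replicate 1 (0.0148) or without week 3 Fas-/- replicate 4 (0.0353).

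**Figure D2:**
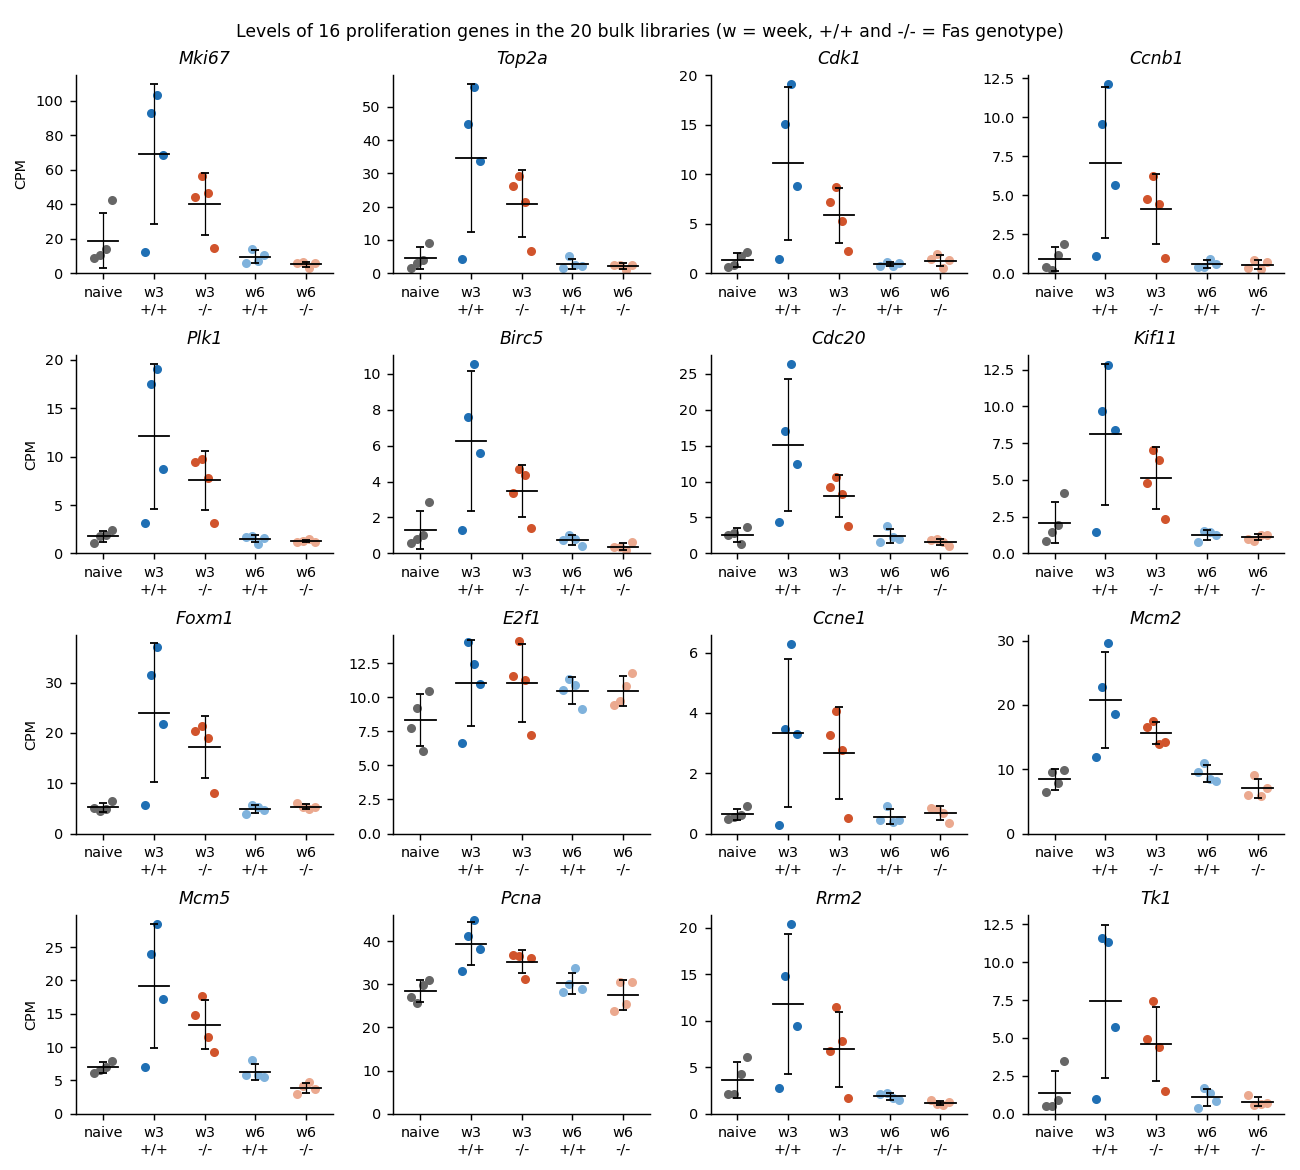
CPM of 16 proliferation genes in the 20 bulk libraries, 1 panel a gene and 1 point a library. Horizontal lines are group means and bars the standard deviation of 4 libraries. In most panels 3 libraries of each week 3 group lie above naive and week 6 libraries, with 1 low library in each.

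DNA replication genes rose by less. Of the 11, 9 were called higher in Fas+/+ (median log2 1.29) and 7 in Fas-/- mice (median 0.68). Mcm6 and Mcm3, subunits of the MCM helicase, had the smallest p of the 46 genes in Fas+/+ and Fas-/- mice. Mcm6 was at 15.5, 17.3, 15.2 and 16.7 CPM in naive and 25.9, 39.2, 42.01 and 31.98 in Fas+/+ libraries (a log2 change of 1.10 with SE 0.131 and adjusted p = 8.67e-06), with no overlap. Mcm3 was at 9.39, 10.2, 8.84 and 11.8 CPM in naive and 20.1, 20.1, 15.4 and 26.8 in Fas-/- libraries (a log2 change of 1.03 with SE 0.191 and adjusted p = 0.000733), also with no overlap, and its highest Fas-/- library was replicate 4, which was the lowest for most other genes.

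Mcm2 was at 6.42, 9.54, 7.83 and 9.83 CPM in naive, 11.9, 22.8, 29.7 and 18.6 in Fas+/+ and 16.6, 17.5, 13.97 and 14.3 in Fas-/- libraries and rose in both genotypes without overlap. Mcm5 was at 6.16, 6.63, 6.97 and 7.96, 7.07, 24.01, 28.5 and 17.2 and 14.8, 17.6, 11.6 and 9.22 CPM in the same groups, and was called in both (adjusted p of 0.00108 and 0.0233). The Fas-/- call of Mcm5 was lost without naive replicate 1 or 2 or week 3 Fas-/- replicate 1 or 2, at adjusted p of 0.0711, 0.0536, 0.0536 and 0.0915. Mcm4, of the same helicase, did not follow its partners, at 34.2, 32.3, 41.4 and 31.9 CPM in naive and 27.03, 35.02, 36.5 and 29.7 in Fas+/+ libraries (a log2 change of -0.13 with SE 0.109 and adjusted p = 0.377). Pcna, the sliding clamp of DNA polymerase, moved little, from 27.1, 25.6, 29.9 and 31.1 CPM in naive to 33.1, 41.3, 45.03 and 38.2 in Fas+/+ and 36.9, 36.7, 31.3 and 36.1 in Fas-/- libraries (1.39-fold and 1.24-fold, both called and both without overlap). The Fas-/- call of Pcna was lost without any 1 of 8 libraries, at adjusted p of 0.0528 to 0.111: naive 1 or 2, week 3 Fas-/- 1, 2 or 4, week 6 Fas+/+ 2 or 4 or week 6 Fas-/- 3. Uhrf1, which maintains DNA methylation at the fork, rose most of this role, by 2.99 and 2.37 on the log2 scale.

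All 4 genes of nucleotide supply rose in Fas+/+ and 2, Rrm1 and Tyms, in Fas-/- mice. Rrm2, the S phase subunit of ribonucleotide reductase, was at 2.07, 2.08, 4.25 and 6.15 CPM in naive, 2.75, 14.8, 20.4 and 9.43 in Fas+/+ and 6.78, 11.5, 7.79 and 1.73 in Fas-/- libraries, with overlap in both (adjusted p of 0.0156 and 0.178). The Fas+/+ call of Rrm2 was lost without naive replicate 1 (adjusted p = 0.0539) or week 3 Fas+/+ replicate 3 (0.0676). Tk1, thymidine kinase, was at 0.517, 0.479, 0.907 and 3.51 CPM in naive, 0.981, 11.6, 11.3 and 5.73 in Fas+/+ and 4.95, 7.44, 4.43 and 1.53 in Fas-/- libraries. It was called in Fas+/+ (adjusted p = 0.0106) and missed the threshold in Fas-/- mice (adjusted p = 0.0632), where it was called without naive replicate 4 (0.00907), week 3 Fas+/+ replicate 1 (0.0263) or week 3 Fas-/- replicate 4 (0.0369).

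Of the transcription factors and E-type cyclins, 4 of 5 rose in Fas+/+ and 3 of 5 in Fas-/- mice. Foxm1, which drives the late wave, was at 5.17, 4.43, 4.82 and 6.54 CPM in naive, 5.59, 31.4, 37.1 and 21.8 in Fas+/+ and 20.4, 21.4, 18.9 and 8.001 in Fas-/- libraries (4.55-fold and 3.28-fold, both called). Ccne1, the cyclin of S phase entry, was at 0.474, 0.559, 0.621 and 0.909, 0.294, 3.45, 6.29 and 3.29 and 3.28, 4.07, 2.77 and 0.5096 CPM, with replicate 1 of Fas+/+ below all naive libraries and replicate 4 of Fas-/- within their range. Both changes of Ccne1 were called (adjusted p of 0.00785 and 0.0216), the Fas-/- call being lost without naive replicate 1 or 2 or week 3 Fas-/- replicate 2 (adjusted p of 0.0626, 0.0543 and 0.0686). E2f1, the activator of the early wave, was at 7.75, 9.18, 6.02 and 10.4 CPM in naive, 6.67, 14.01, 12.4 and 10.9 in Fas+/+ and 11.5, 14.1, 11.2 and 7.24 in Fas-/- libraries and was not called in either genotype (log2 0.39 and 0.40). It was called in Fas+/+ without week 3 Fas+/+ replicate 1 (log2 0.57, adjusted p = 0.0224).

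Libraries of the week 3 Fas+/+ group and naive mice did not overlap for 13 of the 46 genes, beside 32.2% of all genes tested in either direction, and those of week 3 Fas-/- and naive mice for 15, beside 31.1%. Other genes of the same processes, which are not members, were counted in the same way. Of 38 other mitosis genes 36 rose in Fas+/+ and 28 in Fas-/- mice, with medians of 2.74 and 1.94. Of 32 other replication genes 20 and 8 rose and 1 fell in each, with medians of 1.00 and 0.55. Of 16 G1 cyclins, CDKs and pocket proteins, which gate entry into the cycle, 6 and 5 rose and 1 fell in each, with medians of 0.28 and 0.21.

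**Figure D3:**
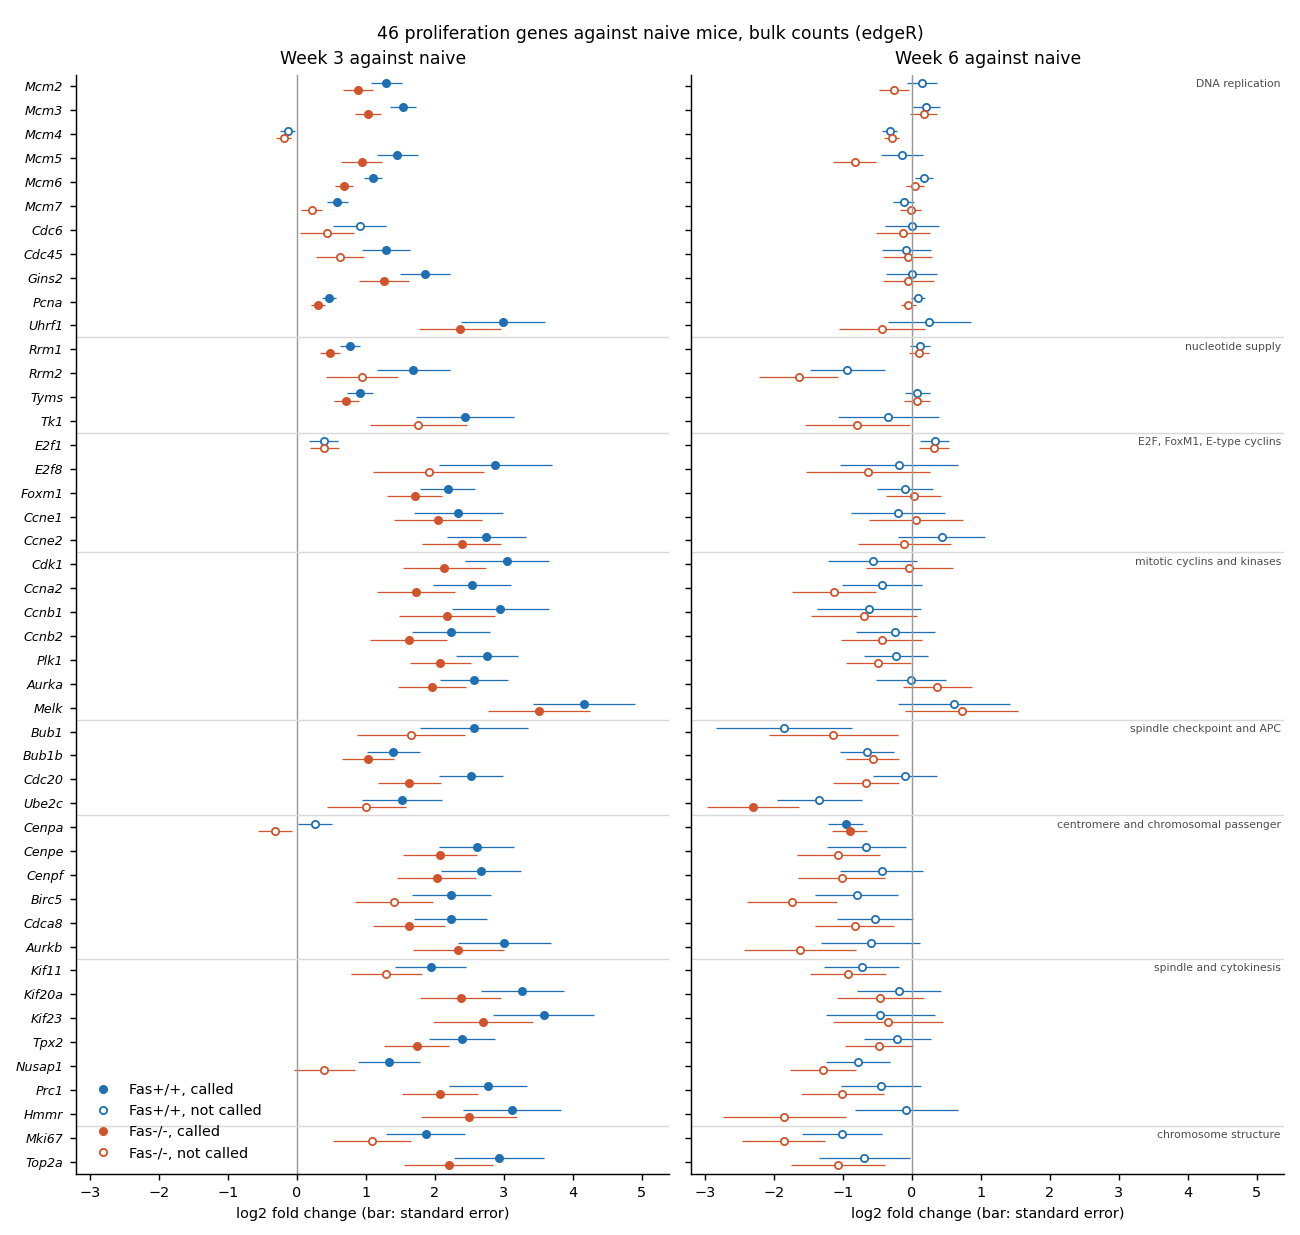
Log2 fold change against naive mice (x axis, with standard errors as bars) of each of the 46 proliferation genes (y axis, grouped by role) at week 3 (left) and week 6 (right). Filled points passed an adjusted p of 0.05. At week 3, 42 points of Fas+/+ and 31 of Fas-/- mice are filled, and at week 6, 1 and 2.

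By 6 weeks the set had fallen back. Between 3 and 6 weeks 43 of the 46 genes fell in Fas+/+ mice and none rose, beside 10.9% of all genes tested called lower, and the median log2 change was -2.63. In Fas-/- mice 36 fell and none rose, beside 4.54% of all genes, with a median of -2.26. All 46 genes had a log2 fold change below 0 in both genotypes. Week 3 and week 6 libraries did not overlap for 24 of the 46 genes in Fas+/+ and 35 in Fas-/- mice. Of all genes tested, 23.5% and 17.4% did not overlap, in either direction. The Fas-/- count dropped to 21 without week 3 Fas-/- replicate 2 and to 20 without week 6 Fas-/- replicate 3. Of the other mitosis genes 37 of 38 fell in Fas+/+ and 28 in Fas-/- mice, and of the other replication genes 20 and 10 of 32. The 8 endothelial markers all had log2 fold changes below 0 in both genotypes (medians of -2.15 and -1.63), with none called. Hematopoietic markers also lay below 0 for 8 of 8 genes in both, with none called in Fas+/+ and 3 called lower in Fas-/- mice (median -2.42). In Fas+/+ mice 5 of 8 epithelial, 3 of 6 erythroid, 4 of 8 mural and 6 of 8 mesothelial markers were called higher, and in Fas-/- mice 7 of 8 mesothelial markers. Of the 8 fibroblast markers, 4 were called higher and 2 lower in Fas+/+ mice (median 0.35). In Fas-/- mice none was called (median 0.25). The part of these marker changes in the fall was not tested. Without the pair of week 3 libraries 45 genes fell in Fas+/+ and 42 in Fas-/- mice (medians of -2.95 and -2.52). Of all genes tested, 716 were called lower in Fas-/- mice in the main fit and 308 without week 3 Fas-/- replicate 2. The drop to 21 was therefore not confined to the proliferation genes. Counts of all genes are not given here for the other fits with libraries left out. For those fits, whether the proliferation genes moved more than all genes cannot be told from the counts alone.

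At 6 weeks Mki67 was at 5.81, 14.1, 6.99 and 10.8 CPM in Fas+/+ and 5.79, 6.35, 2.99 and 5.704 CPM in Fas-/- libraries (a log2 change of -2.87 with SE 0.602 and adjusted p = 0.00264 in Fas+/+ and a log2 change of -2.95 with SE 0.617 and adjusted p = 0.00915 in Fas-/-, week 6 against week 3). Top2a was at 1.53, 5.13, 2.43 and 2.12 and 2.56, 2.61, 0.903 and 2.51 CPM and fell by 3.62 and 3.27 on the log2 scale. In Fas-/- mice the week 6 libraries of both genes lay below all week 3 libraries, while in Fas+/+ mice the low week 3 replicate 1 overlapped them.

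The cyclins and kinases fell in all 7 cases in both genotypes. Cdk1 was at 0.726, 1.09, 0.694 and 1.06 CPM in Fas+/+ and 1.41, 1.895, 0.508 and 1.33 CPM in Fas-/- libraries at 6 weeks (log2 -3.62 and -2.17 against 3 weeks). Ccnb1 was at 0.404, 0.4203, 0.942 and 0.604 and 0.365, 0.871, 0.282 and 0.688 CPM (log2 -3.57 and -2.88). Plk1 was at 1.695, 1.76, 0.992 and 1.61 and 1.201, 1.23, 1.47 and 1.18 CPM (log2 -2.98 and -2.57). All 3 genes were called in both genotypes and none overlapped between weeks. The Fas-/- call of Cdk1 was lost without week 3 Fas-/- replicate 1, 2 or 3 or week 6 Fas-/- replicate 1, 3 or 4 (adjusted p of 0.0514 to 0.109), and that of Ccnb1 without week 3 Fas-/- replicate 2 or week 6 Fas-/- replicate 1, 3 or 4 (0.0548 to 0.0803).

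The largest falls were in Bub1, a checkpoint kinase of the kinetochore, in Fas+/+ mice and in Hmmr, a spindle-associated protein, in Fas-/- mice. Bub1 went from 0.393, 4.05, 4.52 and 2.28 CPM at 3 weeks to 0, 0.252, 0.198 and 0.0503 at 6 weeks (a log2 change of -4.41 with SE 0.922 and adjusted p = 0.00258). Hmmr went from 4.79, 6.43, 4.48 and 0.612 to 0.313, 0.154, 0.0565 and 0.246 CPM (a log2 change of -4.35 with SE 0.835 and adjusted p = 0.00547). Both rest on few counts at 6 weeks, with 1 library of Bub1 at 0. Bub1 passed the filter on low counts only through the week 3 libraries, from which its fall is measured. Hmmr would not have passed it on naive and week 6 Fas-/- libraries alone. The size of both falls is therefore uncertain.

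Cdc20 was at 1.57, 3.87, 2.23 and 1.96 CPM in Fas+/+ and 1.83, 1.998, 1.64 and 1.03 in Fas-/- libraries at 6 weeks and fell in both (log2 -2.63 and -2.30). Birc5 was at 0.726, 1.05, 0.793 and 0.403 and 0.365, 0.359, 0.169 and 0.639 CPM and fell in both (log2 -3.04 and -3.15). Kif11 was at 0.767, 1.51, 1.49 and 1.26 and 0.992, 0.871, 1.24 and 1.28 CPM and fell in both (log2 -2.68 and -2.23), the Fas-/- call being lost without week 3 Fas-/- replicate 2 or week 6 Fas-/- replicate 3 (adjusted p of 0.0581 and 0.0569). These mitotic genes had thus left the week 3 range in all week 6 libraries of Fas-/- mice.

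Of the transcription factors and E-type cyclins, 4 of 5 fell in Fas+/+ and 2 of 5 in Fas-/- mice. Foxm1 was at 3.83, 5.76, 5.31 and 4.73 CPM in Fas+/+ and 6.11, 5.17, 4.798 and 5.36 in Fas-/- libraries at 6 weeks (log2 -2.28 and -1.68, both called, the Fas-/- call being lost without week 3 Fas-/- replicate 2 or week 6 Fas-/- replicate 3 at adjusted p of 0.0508 and 0.0596). Ccne1 was at 0.444, 0.925, 0.397 and 0.453 and 0.835, 0.8196, 0.677 and 0.344 CPM, a fall that was called in Fas+/+ and not in Fas-/- mice (adjusted p of 0.00999 and 0.0629). It was called in Fas-/- mice without week 3 Fas+/+ replicate 1 (0.0119) or week 3 Fas-/- replicate 4 (0.0259). E2f1 was at 10.5, 11.3, 10.9 and 9.11 and 9.398, 9.68, 10.8 and 11.8 CPM and was the least changed of the 46 genes (log2 -0.07 and -0.08), its sign turning without week 3 Fas+/+ replicate 2 (0.07) and without week 3 Fas-/- replicate 2 (0.07), and its value reaching 0.00 without week 6 Fas+/+ replicate 4.

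Replication genes were called in 9 of 11 cases in Fas+/+ and 7 of 11 in Fas-/- mice. The smallest p values belonged to Mcm6 in Fas+/+ (a log2 change of -0.93 with SE 0.130 and adjusted p = 0.000184) and Mcm5 in Fas-/- mice (a log2 change of -1.77 with SE 0.312 and adjusted p = 0.00310). Mcm6 was at 15.2, 22.2, 17.3 and 18.2 CPM in week 6 Fas+/+ libraries, and Mcm5 at 5.85, 8.03, 5.802 and 5.49 in Fas+/+ and 2.98, 4.15, 4.74 and 3.74 in Fas-/- libraries. Mcm2 was at 9.56, 11.01, 8.48 and 8.11 and 6.06, 9.12, 5.81 and 7.08 CPM and fell by 1.15 on the log2 scale in both genotypes. Pcna was at 28.3, 30.1, 33.7 and 28.9 and 23.8, 30.5, 25.5 and 30.4 CPM and fell by 0.38 and 0.36. The Fas+/+ call of Pcna was lost without week 3 Fas+/+ replicate 3 or week 6 Fas+/+ replicate 4 (adjusted p of 0.0548 and 0.0557), and the Fas-/- call without naive 1, week 3 Fas-/- 1, 2 or 4, week 6 Fas+/+ 2, 3 or 4, or week 6 Fas-/- 1 or 3 (0.0576 to 0.15).

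Rrm2 was at 2.098, 2.27, 1.64 and 1.51 CPM in Fas+/+ and 1.46, 1.02, 0.903 and 1.23 in Fas-/- libraries at 6 weeks and fell without overlap in both (log2 -2.63 and -2.58). Tk1 was at 0.363, 1.72, 1.34 and 0.856 and 1.201, 0.564, 0.621 and 0.738 CPM and was called in both (log2 -2.78 and -2.55). The Fas-/- call of Tk1 (adjusted p = 0.0415) was lost without any of 9 single libraries: week 3 Fas-/- 1, 2 or 3, week 6 Fas+/+ 3 or 4 or any week 6 Fas-/- library (0.0532 to 0.114).

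Set against naive mice, the week 6 levels differed for few genes. In Fas+/+ mice none of the 46 was called higher and 1 lower, beside 5.31% of all genes tested called in either direction, and the median log2 change was -0.22. In Fas-/- mice none was called higher and 2 lower, beside 6.48%, with a median of -0.48. Naive replicate 4 set the direction of the first median: without it the medians were 0.04 in Fas+/+, with 27 of 46 genes above 0, and -0.16 in Fas-/- mice. Without week 6 Fas+/+ replicate 2 the Fas+/+ median was -0.45. In the same comparison epithelial markers were called higher for 8 of 8 genes in Fas+/+ and 4 of 8 in Fas-/- mice, hematopoietic markers for 2 of 8 in Fas+/+ mice, and erythroid markers were called lower for 2 of 6 and 6 of 6 (medians of -1.45 and -3.25). Endothelial markers lay above 0 for 8 of 8 genes in each, with none called (medians of 2.46 and 2.27). Of the 8 fibroblast markers, 1 was called lower in each (medians of -0.32 and -0.05). The part of these marker changes was not tested. Cenpa was lower in both, at 6.29, 5.801, 5.46 and 5.24 CPM in Fas+/+ and 7.52, 5.02, 6.49 and 4.67 in Fas-/- libraries, all below the lowest naive library (a log2 change of -0.96 with SE 0.253 and adjusted p = 0.0328 in Fas+/+ and a log2 change of -0.90 with SE 0.253 and adjusted p = 0.0416 in Fas-/-). Ube2c, the ubiquitin-conjugating enzyme of the anaphase-promoting complex, was lower in Fas-/- mice, at 0.574, 1.18, 0.169 and 0.393 CPM against 1.12, 1.398, 4.203 and 4.98 in naive libraries (a log2 change of -2.31 with SE 0.667 and adjusted p = 0.0464). Melk had the highest log2 fold change in both genotypes (0.61 and 0.72, not called), turning to -0.05 in Fas+/+ mice without week 6 Fas+/+ replicate 2. Bub1 had the lowest in Fas+/+ mice (-1.85, adjusted p = 0.318).

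Week 6 and naive libraries did not overlap for 3 genes in Fas+/+ and 6 in Fas-/- mice, beside 16.6% and 16.1% of all genes. These calls at 6 weeks lay close to the threshold. The Fas+/+ call was lost when any of naive replicates 1, 2 and 3 or week 6 Fas+/+ replicates 2, 3 and 4 was left out. The Fas-/- count ran from 0 to 6 when 1 of the 20 libraries was left out, and moved from 2 in every case except without week 3 Fas+/+ replicate 3. It was 6 without week 3 Fas+/+ replicate 1 and 4 without week 3 Fas-/- replicate 4, and 9 without both. DESeq2 called 5 genes lower. Of all genes tested, 444 were called lower than naive in week 6 Fas-/- mice in the main fit. Without week 3 Fas+/+ replicate 1 this was 713, without week 3 Fas-/- replicate 4 it was 714, and with DESeq2 761. The larger counts in these fits were therefore not confined to the proliferation genes. Without week 3 Fas-/- replicate 3, 0 proliferation genes were called lower, beside 449 of all genes. Counts of all genes are not given here for the other refits.

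The genotype comparison asked whether loss of Fas changed proliferation genes at either time. At 3 weeks none of the 46 genes was called, beside 0.171% of all genes tested. Before adjustment 5 of the 46 reached 0.05 (6 with DESeq2, which also called none), beside 1359 of all 15773 genes tested. The log2 fold changes lay below 0 for 45 of 46 genes, with a median of -0.62 and a range from -0.98 to 0.01, beside 7988 of 15773 genes below 0 overall. Endothelial markers lay below 0 for 8 of 8 genes (median -0.68) and erythroid markers for 6 of 6 (median -1.19), with none called, and their part was not tested. Mcm6 had the smallest p (a log2 change of -0.42 with SE 0.129 and adjusted p = 0.250), at 25.9, 39.2, 42.01 and 31.98 CPM in Fas+/+ and 25.9, 28.7, 23.99 and 25.3 in Fas-/- libraries. E2f8, a repressor E2F of S phase, had the lowest log2 fold change (a log2 change of -0.98 with SE 0.748 and adjusted p = 0.773) and E2f1 the highest (0.01), which turned to values between -0.17 and -0.01 without week 3 Fas+/+ replicate 1 or week 3 Fas-/- replicate 1, 2 or 3. No gene separated the genotypes without overlap, where 3.92% of all genes did.

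Single libraries moved this comparison. Without week 3 Fas+/+ replicate 1 the median was -0.99, 35 of the 46 genes in place of 5 reached 0.05 before adjustment, and Mcm6 was called lower in Fas-/- mice (log2 -0.54, adjusted p = 0.0287). Without week 3 Fas-/- replicate 4 the median was -0.39, 2 genes reached 0.05 before adjustment and none was called. Without week 3 Fas+/+ replicate 3 the median was -0.35, with 1 such gene and no call. Without both of the pair, all 46 genes lay below 0 with a median of -0.72, 19 reached 0.05 before adjustment, and Mcm3 (log2 -0.77, adjusted p = 0.0318) and Mcm6 (log2 -0.53, adjusted p = 0.0278) were called lower. This last choice was made after the data had been seen. How many of all genes tested reached 0.05 before adjustment was not counted in these fits. The number of all genes called in them is not given here either, so the calls of Mcm3 and Mcm6 stand without that background.

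At 6 weeks none of the 46 genes was called between genotypes, beside 0.0507% of all genes tested. Before adjustment 1 of the 46, Mcm5, reached 0.05 (2 genes with DESeq2, which also called none), beside 1273 of all 15773 genes tested. The median log2 fold change was -0.23, with 34 of 46 genes below 0, and without week 6 Fas+/+ replicate 2 it was -0.10, with 28 below 0. Without the pair of week 3 libraries it was -0.23 with no call and 3 genes at 0.05 before adjustment. Mcm5 was at 5.85, 8.03, 5.802 and 5.49 CPM in Fas+/+ and 2.98, 4.15, 4.74 and 3.74 in Fas-/- libraries, with no overlap (a log2 change of -0.69 with SE 0.312 and adjusted p = 0.580) and an exact permutation p of 0.0286 (two-sided), the smallest possible. Epithelial and hematopoietic markers were lower in Fas-/- mice for 8 of 8 genes each (medians of -1.67 and -1.58), erythroid markers for 6 of 6 (median -1.80) and endothelial markers for 8 of 8 (median -0.21), with none called, and their part was not tested. Rrm2 and Hmmr also separated without overlap, beside 6.81% of all genes. Hmmr had the lowest log2 fold change (a log2 change of -1.78 with SE 0.895 and adjusted p = 0.666) and Bub1 the highest (0.71, turning to -0.05 without week 6 Fas-/- replicate 1). The difference of the genotype effects between weeks was tested as an interaction, which called none of the 46, beside 0.00634% of all genes. Before adjustment 1 of the 46, Mcm7, reached 0.05 (a log2 change of 0.47 with SE 0.215 and adjusted p = 0.636), beside 1210 of all 15773 genes tested. With DESeq2 1 gene did so and none was called. The number at 0.05 before adjustment was 10 without week 3 Fas+/+ replicate 1 and 8 without the pair, with no call. How many of all genes reached it without single libraries or the pair was not counted. The highest and lowest interaction terms were those of Bub1 (1.61, adjusted p = 0.875) and Hmmr (-1.15, adjusted p = 0.905).

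The single-cell libraries showed which cells carried these transcripts, but they went against the bulk libraries in time. Over 9529 genes that are not members, the log2 ratio of week 6 to week 3 in the summed UMIs (unique molecules counted) of the Fas+/+ libraries had r = -0.92 with the bulk fold change, a value across genes, which are not independent. Of 2534 of these genes called between weeks in bulk, 2455 (96.88%) had the opposite sign in the single-cell libraries. In Fas-/- mice r was -0.60 over 9257 genes, and 908 of 961 called genes (94.48%) had the opposite sign. Within cells with fibroblast markers r was -0.74 and -0.64. Cthrc1, a marker of matrix-producing fibroblasts, was at 391 of 26828278 UMIs in the library labelled week 3 Fas+/+ and 4137 of 35004216 in that labelled week 6 Fas+/+. Whether the week labels of the single-cell or of the bulk libraries were exchanged was not tested, and all statements on time above rest on the bulk labels. The single-cell libraries are named below by their labels only, with no statement on time.

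The libraries held 603, 2664, 2608, 3240 and 2944 cells after filtering (naive, then labelled week 3 Fas+/+, week 3 Fas-/-, week 6 Fas+/+ and week 6 Fas-/-), with median depths of 7876, 8896, 5768, 7151 and 8675 UMIs. With 1 library per condition no test between conditions was made, and intervals cover counting error only. Pairs of libraries shared 91 to 289 cell barcodes, and 350 of the 603 naive cells carried a barcode found in another library. In the naive library cells with shared barcodes were the deeper ones (median 11972 against 4520 UMIs), whereas in the other 4 they were shallow (medians of 758 to 1134 UMIs).

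Levels are given as UPM, UMIs per 1000000 UMIs of a library or set of cells. The 46 genes together made up 181.5 UPM in the naive library (95% Poisson interval 170.5 to 193.0), 163.1 (158.3 to 168.0) in that labelled week 3 Fas+/+ and 171.4 (165.3 to 177.7) in that labelled week 3 Fas-/-. They made up 363.6 (357.4 to 370.0) in the library labelled week 6 Fas+/+ and 316.4 (310.5 to 322.5) in that labelled week 6 Fas-/-. The libraries labelled week 6 were thus the highest, while in bulk the week 6 libraries were lowest or near naive. Of the 46 genes, 45 were higher in the library labelled week 6 than in that labelled week 3 for Fas+/+, with E2f1 the exception, and 46 for Fas-/- mice, whereas all 46 were lower at week 6 in bulk.

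**Figure D4:**
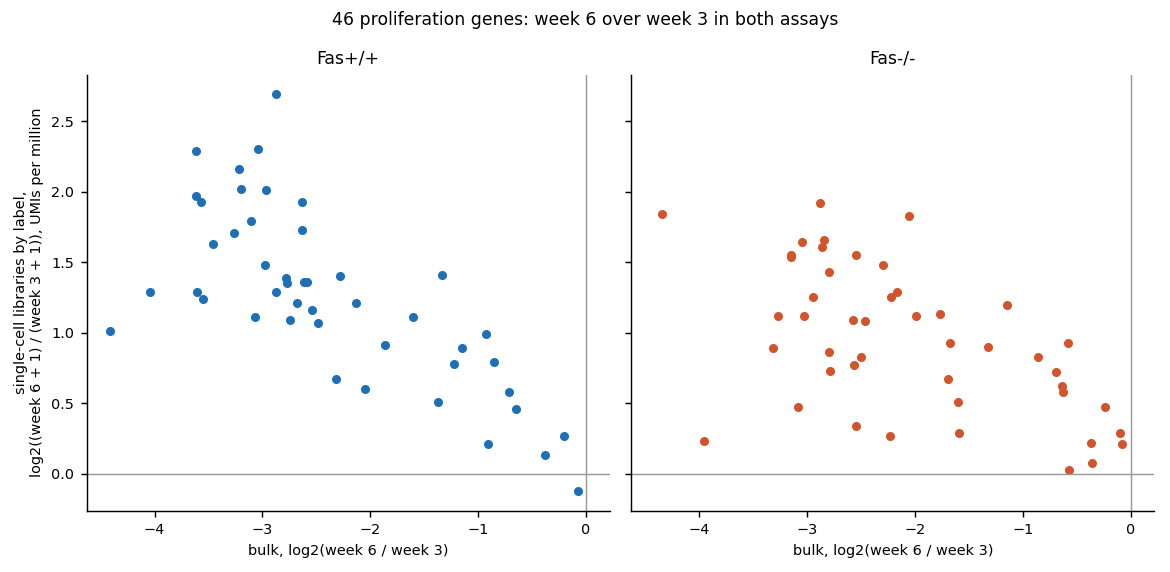
Log2 ratio of week 6 to week 3 for the 46 proliferation genes in bulk (x axis) and in the single-cell libraries by label (y axis, UPM with 1 added), for Fas+/+ (left) and Fas-/- (right), 1 point a gene. All points lie to the left of 0 and all except E2f1 in Fas+/+ lie above 0, lower at week 6 in bulk and higher in the library labelled week 6.

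Mitotic genes differed more between these libraries than replication genes. The 26 mitotic genes were at 35.97 UPM (31.18 to 41.29) in the naive library and at 37.65 (35.36 to 40.04) and 43.98 (40.89 to 47.24) in the libraries labelled week 3 Fas+/+ and Fas-/-. They were at 161.6 (157.5 to 165.9) and 129.7 (125.9 to 133.6) in those labelled week 6 Fas+/+ and Fas-/-. These intervals treat UMIs as independent, although most mitotic UMIs of the latter libraries sat in few cells, as described below. They therefore leave out the spread from which cells were sampled. The 20 replication and G1/S genes were at 145.5, 125.4, 127.4, 202.0 and 186.7 UPM in the same order. Mki67 was at 3.383, 1.155, 3.045, 12.94 and 8.613, Cdk1 at 1.425, 1.305, 1.874, 8.056 and 6.029, and Mcm5 at 4.096, 2.945, 2.518, 7.542 and 6.683 UPM. Pcna stayed between 33.48 and 38.31 in all 5 libraries, as it also varied little in bulk.

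In the libraries labelled week 6 most mitotic transcripts sat in few cells. A cell was counted as mitotic where at least 5 of the 26 mitotic genes had a UMI, a threshold on detected genes and not a cell type. By this rule 54 of 3240 cells (1.667%, exact binomial interval 1.254 to 2.169%) were mitotic in the library labelled week 6 Fas+/+ and 53 of 2944 (1.800%, 1.351 to 2.348%) in that labelled week 6 Fas-/-. There were 6 of 2664 (0.2252%, 0.0827 to 0.4896%) and 5 of 2608 (0.1917%, 0.06228 to 0.4468%) in those labelled week 3 Fas+/+ and Fas-/-, and 1 of 603 (0.1658%, 0.00420 to 0.9205%) in the naive library. The 54 and 53 mitotic cells held 81.14% and 80.31% of all mitotic UMIs of their libraries, and 419 of 453 and 262 of 290 Mki67 UMIs. The shares were 17.33% in the naive library and 39.01% and 49.40% in those labelled week 3 Fas+/+ and Fas-/-. The remaining cells of the 5 libraries lay between 22.31 and 31.61 mitotic UPM. The rule uses these same 26 genes, Mki67 among them, so part of this split between cells follows from the rule. Near the threshold, 9 and 8 cells of the libraries labelled week 6 Fas+/+ and Fas-/- had exactly 4 of the genes and 8 and 10 cells exactly 5.

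**Figure D5:**
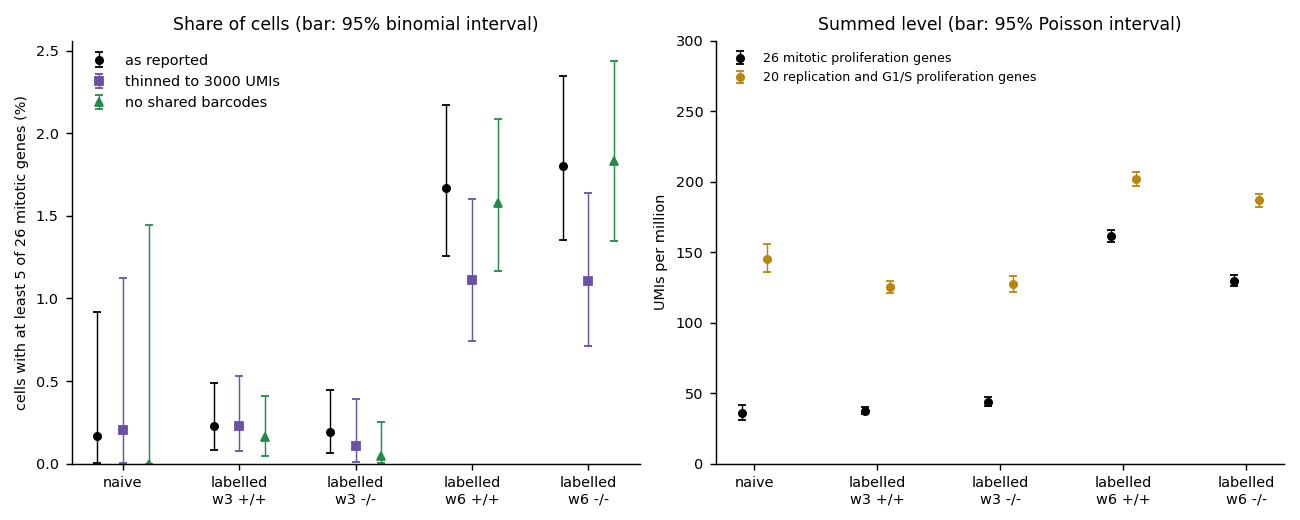
Left, percent of cells with at least 5 of 26 mitotic genes in each single-cell library, as reported, after thinning each cell to 3000 UMIs, and without barcodes found in more than 1 library, with 95% binomial intervals. Right, UPM of the 26 mitotic and 20 replication and G1/S genes, with 95% Poisson intervals. Both are highest in the 2 libraries labelled week 6.

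Depth and filters moved the size of these shares but not which libraries were high. The median depth of mitotic cells was 16003 and 26605 UMIs in the libraries labelled week 6 Fas+/+ and Fas-/-, against 7060 and 8555 in other cells. Thinned to 3000 UMIs, 28 of 2517 cells (1.112%) and 24 of 2171 (1.105%) were mitotic, against 46 of each set of cells before thinning. In the libraries labelled week 3, 5 of 2188 and 2 of 1844 cells were mitotic after thinning, against 6 and 2 before, and in the naive library 1 of 493. Cells shallower than this were left out, 110, 476, 764, 723 and 773 cells in the same order of libraries. The upper limit of 7500 genes per cell, set against doublets, removed 41 cells of the library labelled week 6 Fas+/+, of which 17 were mitotic by the rule, and 19 of that labelled week 6 Fas-/-, of which 14 were. Without barcodes found in more than 1 library, 0 of 253 naive cells were mitotic, which allows a share of up to 1.19%, and 4, 1, 48 and 46 cells in the other 4 libraries.

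The members that the rule did not use also stood higher in the mitotic cells. The 20 replication and G1/S genes were at 1403 UPM (1338 to 1470) in the mitotic cells of the library labelled week 6 Fas+/+ and at 157.5 (153.3 to 161.8) in its other cells. In that labelled week 6 Fas-/- they were at 1280 (1221 to 1340) and 139.2 (135.2 to 143.3). At least 5 of the 20 had a UMI in 38 of 54 and 35 of 53 mitotic cells, and in 136 of 3186 and 113 of 2891 other cells. In the library labelled week 3 Fas+/+ the same genes were at 989.1 (819.4 to 1184) in its 6 mitotic cells and 121.5 (117.4 to 125.8) in the rest. In that labelled week 3 Fas-/- they were at 951.8 (680.0 to 1296) in its 5 mitotic cells and 125.4 (120.1 to 130.8) in the rest. There at least 5 of the 20 had a UMI in only 1 of the 6 and 2 of the 5 mitotic cells.

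Mitotic cells carried markers of several lineages. Cells were assigned to the marker list with most of its 8 genes detected, if at least 3 were, and the lists hold no proliferation gene. In the library labelled week 6 Fas+/+, 24 of 1332 cells with fibroblast markers (1.802%, 1.158 to 2.669%) and 18 of 1308 with endothelial markers (1.376%, 0.8176 to 2.166%) were mitotic, with 3 of 258 mural, 3 of 4 erythroid and 6 of 185 unassigned cells. In that labelled week 6 Fas-/-, 36 of 1853 fibroblast (1.943%, 1.364 to 2.680%), 4 of 254 endothelial (1.575%, 0.4307 to 3.983%) and 5 of 380 mural cells (1.316%, 0.4286 to 3.044%) were mitotic, with 1 of 164 mesothelial, 1 of 5 erythroid and 6 of 251 unassigned cells. In both libraries the intervals of these shares overlap between fibroblast and endothelial cells. The rule depends on depth, and the fibroblast cells were deeper. Their medians were 13488 against 5131 UMIs in the library labelled week 6 Fas+/+ and 12370 against 4319 in that labelled week 6 Fas-/-. Per UMI the mitotic genes were higher in the endothelial cells of these libraries, at 207.5 against 121.1 UPM and 188.8 against 125.9 UPM. In the library labelled week 3 Fas+/+ they were not, at 33.78 UPM (24.82 to 44.91) against 37.81 (35.13 to 40.63). Of cells with fibroblast markers, 4 of 1717 were mitotic in the library labelled week 3 Fas+/+, 1 of 1741 in that labelled week 3 Fas-/- and 0 of 400 in the naive library, which allows a share of up to 0.75%. The 1 mitotic cell of the naive library and 2 of the 6 in that labelled week 3 Fas+/+ had erythroid markers, out of 3 and 5 such cells. Cells with endothelial markers held 2 of the 5 mitotic cells of the library labelled week 3 Fas-/-. These 183 endothelial cells were at 272.4 mitotic UPM (235.9 to 313.0), against 33.28 in its fibroblast cells. That interval treats UMIs as independent and leaves out the spread from which cells were sampled.

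Within cells with fibroblast markers the mitotic genes were at 23.75 UPM (19.30 to 28.92) in the naive library, 37.81 and 33.28 in those labelled week 3 Fas+/+ and Fas-/-, and 121.1 (116.5 to 125.9) and 125.9 (121.7 to 130.2) in those labelled week 6 Fas+/+ and Fas-/-. The last 2 values come from 1 library each, with 24 and 36 mitotic cells, and were not tested against each other. Cells with endothelial markers made up 40.37% of the library labelled week 6 Fas+/+ and 8.628% of that labelled week 6 Fas-/-, and held 207.5 (197.7 to 217.6) and 188.8 (166.3 to 213.6) mitotic UPM.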

How the data were processed

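Lin- lung cells were profiled by stranded polyA bulk RNA-seq (20 libraries, 5 groups of 4) and by droplet scRNA-seq (5 libraries). The authors deposited gene-level counts, made by trimming, HISAT2 alignment to GRCm38 and HTSeq counting on Ensembl genes, and UMI counts from Cell Ranger. Their separate table of normalized values was not used, and 0 columns of per-sample counts were left out. The counts do not resolve single exons.

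Bulk counts were fitted over all 5 groups with edgeR 4.0.16 in R 4.3.3 (filterByExpr, minimum count 10, TMM, quasi-likelihood F test, Benjamini-Hochberg adjustment over 15773 genes, threshold 0.05). DESeq2 1.42.0, RLE normalization, no filter, a replicate block, only the groups compared and leaving out each library were alternatives. Exact permutation tests were two-sided over 70 arrangements, also in R. Library totals ran from 11819700 to 25189096 counts. Chi-square per gene between replicates was 6.89 or more, so none was counted as a repeat. Samples with the same replicate number did not deviate together (r of -0.46 to 0.40, median 0.03, 40 pairs; different numbers, median -0.02, 120 pairs).

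Barcodes were kept where 200 to 7500 genes were detected and mitochondrial genes held no more than 20% of UMIs. No doublet caller was run. Levels are UMIs per 1000000 (UPM) with exact Poisson intervals, and shares have Clopper-Pearson intervals. Both are at 95%, from scipy 1.17.1, and for counting error only. Scripts were tested on simulated data. Values in every library are given for 16 genes chosen as standard proliferation markers with at least 1 per role, together with the genes of smallest p, largest rise and largest fall in each comparison. Other genes were named for being exceptions to a count or largest in a role. The 46 genes and all lists were chosen with earlier results of these data known. CPM is not scaled by gene length, so levels are not compared between genes.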

Additional observations from a re-analysis of the deposited data

Results flagged for a closer look

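Among 80 sets of 4 libraries (16 proliferation genes in 5 groups), 7 held a library far from its fellows by Dixon's criterion, where chance alone marks about 1 in 20. Naive replicate 4 stood out in Mki67, at 42.3 CPM against 8.83 to 14.2 in the other 3 libraries, and in Tk1, at 3.51 CPM against 0.479 to 0.907. Replicate 3 of week 6 Fas-/- was low in Top2a, at 0.903 CPM against 2.51 to 2.61, and high in Plk1, at 1.47 CPM against 1.18 to 1.23. Replicate 2 of week 6 Fas+/+ was high in Ccne1, at 0.925 CPM against 0.397 to 0.453, and in Mcm5, at 8.03 CPM against 5.49 to 5.85. Replicate 3 of week 3 Fas-/- was low in Pcna, at 31.3 CPM against 36.1 to 36.9.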

How the results depend on the processing

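Without each library in turn, the genes called higher than naive at 3 weeks numbered 38 to 44 in Fas+/+ and 21 to 35 in Fas-/- mice, and those lower at 6 than at 3 weeks 42 to 44 and 20 to 40. Genes lower than naive at 6 weeks numbered 0 to 1 in Fas+/+ and 0 to 6 in Fas-/- mice, and those lower in Fas-/- than Fas+/+ at 3 weeks 0 to 1. Counts of all genes called moved as well, so these ranges do not show shifts of the proliferation genes alone. Over time in Fas-/- mice, 716 of all genes were called lower in the main fit. Without week 3 Fas-/- replicate 2 this was 308, beside 21 proliferation genes. Without week 3 Fas+/+ replicate 1 it was 1150, beside 40. The count of 2 lower genes in week 6 Fas-/- mice became 5 with DESeq2, 1 with no filter and 1 with the replicate block. Without the pair of libraries high in endothelial markers, a choice made after seeing the data, it became 9, with 2 in week 6 Fas+/+ and 2 between genotypes at 3 weeks. Of all genes, 444 were called lower in week 6 Fas-/- mice in the main fit and 761 with DESeq2. With no filter 296 were, and with the replicate block 421. The number of all genes without the pair is not given. The replicate block gave 41 and 31 genes higher at 3 weeks, and the numbers were not found to pair samples. It lost Ube2c at 6 weeks (adjusted p = 0.0562) and Tk1 in Fas-/- mice over time (0.0599) and gained Kif11 in week 3 Fas-/- mice (0.0367). In fits of only the groups compared, 36 and 27 genes were higher at 3 weeks, and Mki67, Rrm2 and Tk1 lost their Fas+/+ calls (adjusted p of 0.0628, 0.0523 and 0.0512). Of 88 fold changes, 84 kept direction and side of the threshold with DESeq2, 88 with RLE and 84 with no filter.

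Of the named fold changes, those of E2f1, Melk and Bub1 turned sign. Leaving out single libraries, E2f1 ranged between -0.25 and 0.07 over time in Fas+/+, between -0.23 and 0.07 in Fas-/- mice and between -0.17 and 0.17 between genotypes at 3 weeks (-0.02 without the pair). Melk at 6 weeks in Fas+/+ mice ranged from -0.05 to 0.91, and Bub1 between genotypes at 6 weeks from -0.05 to 1.33. The cause was not tested.

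The mitotic share of cells fell from 0.166% to 0% in the naive library and from 0.192% to 0.0450% in that labelled week 3 Fas-/- without shared barcodes. With 3 genes required it was 0.638% in the library labelled week 3 Fas+/+, and 2.81% and 2.79% in those labelled week 6 Fas+/+ and Fas-/-. With 8 genes the latter were 1.20% and 1.19%, and thinned 1.11% and 1.11%. Counts below about 1 CPM and single-digit cell numbers limit what can be told apart.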
